A study of Sus scrofa with 6 samples.

Results

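The C/EBP factors (CCAAT/enhancer-binding proteins) and PU.1 were followed in peripheral blood mononuclear cells (PBMCs), the lymphocytes and monocytes separated from blood. All 7 genes sought by symbol, namely CEBPA, CEBPB, CEBPD, CEBPE, CEBPG, CEBPZ and SPI1 (which encodes PU.1), were found among the 11564 genes of the table. RNA came from 6 pigs at 6 months of age, 1 library per animal, of which 3 were labelled wild type (WT) and 3 labelled as overexpressing leptin (called leptin here). The transgenic line carried a pig leptin open reading frame behind a leptin promoter. It was made by nuclear transfer from selected Yorkshire fetal fibroblasts, and nontransgenic pigs were the controls. Levels are FPKM, that is fragments scaled by gene length and library total, so they can be compared between genes. No read counts came with the FPKM, so sequencing depth is unknown and precision rests on 3 libraries per label.

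C/EBP proteins are basic leucine zipper factors that bind DNA as dimers, and PU.1 is an ETS factor. Together they direct the making of monocytes and granulocytes from blood progenitors and hold on the genes by which these cells are known, such as receptors for colony stimulating factors, lysozyme, calgranulins and granule proteins. In the myeloid series, C/EBPα acts early, C/EBPε acts at the stage when secondary granules are made, and C/EBPβ and C/EBPδ are induced by cytokines during inflammation. C/EBPγ is a short family member that pairs with the others. CEBPZ shares only the name, since its product is a CCAAT-binding protein of the nucleolus and not a leucine zipper factor. PU.1 is also made in B cells at a lower level than in myeloid cells, and in mature T cells it is mostly silent.

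The labels were checked on LEP, the gene of the transgene. In the order of the replicate numbers, LEP read 50.0, 0 and 0.118 FPKM with the WT label and 0, 18.3 and 39.3 FPKM with the leptin label. LEP is thus at odds with the label in replicate 1 of each group. The members' differences are therefore also given with both of these libraries left out. So are the medians, and the counts at an unadjusted p under 0.05, of the partner, target and ribosome biogenesis lists. Counts for the lists of cell type markers are given with all libraries only. The markers of blood cell types written down for the check were found in part. Of 16 T cell markers 16 were in the table, with 9 of 12 for B cells, 11 of 13 for NK cells, 14 of 18 for monocytes and 11 of 22 for neutrophils. The T cell receptor chain CD3E was at 213 to 372 FPKM and the monocyte marker CD14 at 99.9 to 291 FPKM. The neutrophil elastase gene ELANE was at 1.05 FPKM or less in every library.

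The genes were chosen by name with the FPKM results of these same libraries known, so their levels and their differences between the labels are given as a description, without a test. In whole PBMCs, fewer cells of a type and less RNA per cell cannot be told apart. SPI1 (ENSSSCG00000013237, chromosome 2 from 16421196 to 16452507 by the table's own coordinates, which name no build) had by far the highest level of the members. It averaged 756 ± 166 FPKM (SD, n = 6), which put it at rank 96 of the 11564 genes. CEBPD followed with 129.9 ± 85.4 FPKM and CEBPB with 92.9 ± 57.4 FPKM, both SD over the 6 libraries. Below them stood CEBPE at 30.2 ± 11.4 FPKM, CEBPA at 18.7 ± 6.41 FPKM, CEBPZ at 11.0 ± 0.698 FPKM and CEBPG at 7.99 ± 0.998 FPKM. SPI1 lay above CEBPD in 6 of 6 libraries with no overlap of their ranges. CEBPA lay above CEBPZ, and CEBPZ above CEBPG, in 6 of 6 libraries too. The ranges of neighbours overlapped for CEBPD and CEBPB, for CEBPB and CEBPE, and for CEBPE and CEBPA, and each of these orders held in 5 of 6 libraries. A gene's level rests on its annotated length, and the loci of CEBPA, CEBPB and CEBPD, whose genes have no introns, span 1066, 1572 and 1537 bp in the table.

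**Figure D1:**
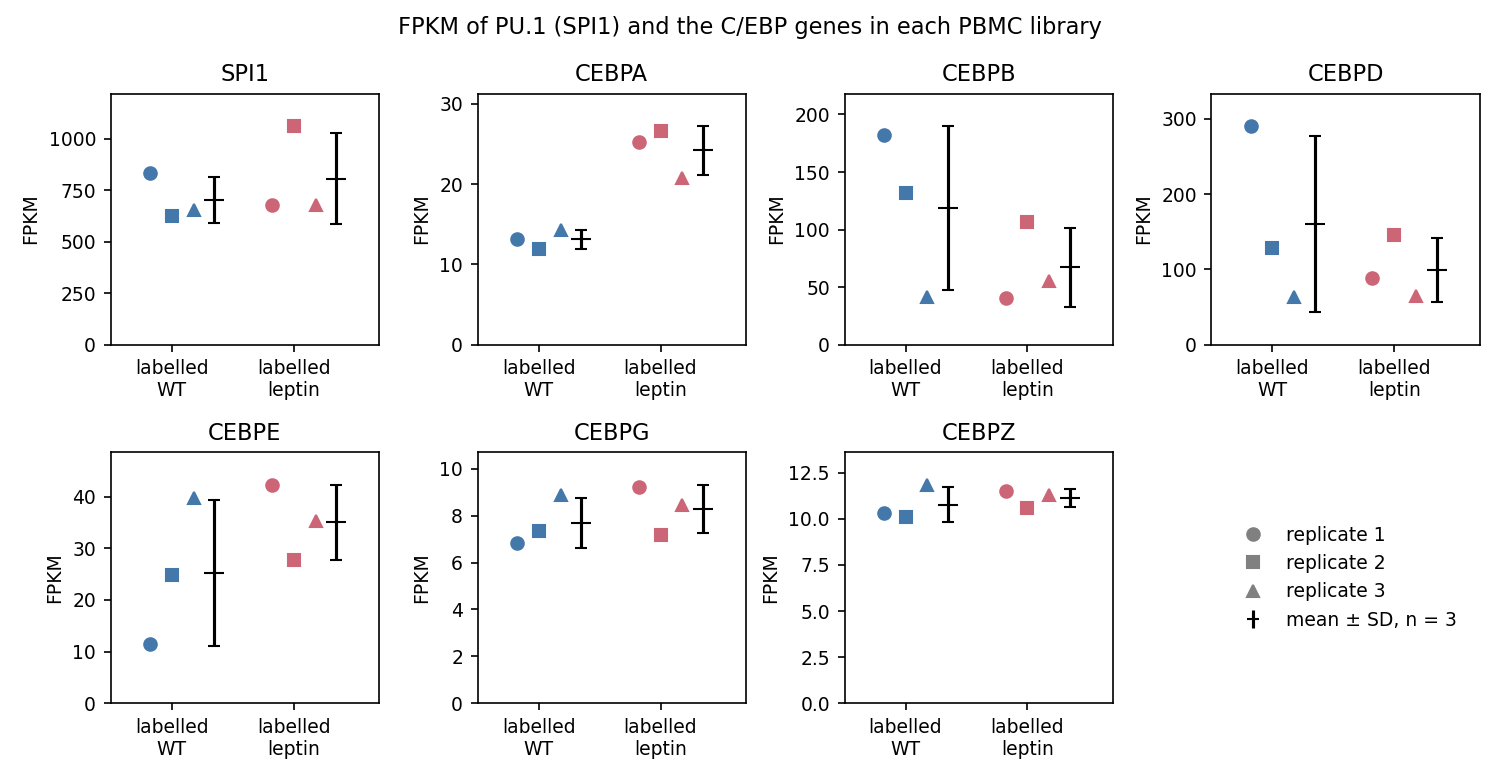
FPKM of each gene (vertical axes, linear and starting at 0) in the libraries labelled WT (blue) and labelled leptin (red), with replicate numbers as symbols and the mean ± SD of 3 libraries in black. CEBPA is the one gene whose labels do not overlap (11.9 to 14.3 against 20.8 to 26.6 FPKM), and CEBPB, CEBPD and CEBPE are widely spread within each label.

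PU.1 RNA was high in every animal. SPI1 stood at 833, 625 and 657 FPKM under the WT label and at 680.3, 1062 and 678 FPKM under the leptin label, in the order of the replicate numbers. The highest library was leptin replicate 2 and the next WT replicate 1, and the other 4 lay between 625 and 680.3 FPKM, so the labels overlapped. The mean was 705 ± 112 FPKM for WT and 807 ± 221 FPKM for leptin (SD, n = 3 each). On the log2(FPKM + 1) scale the difference of leptin minus WT was 0.17 with a standard error of 0.22 from limma, and it was 0.40 with both replicate 1 libraries left out and -0.04 without leptin replicate 2.

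CEBPA (ENSSSCG00000002866, chromosome 6 from 38633642 to 38634707), which encodes the factor that commits progenitors to the myeloid series, was higher in every library labelled leptin than in any labelled WT. It stood at 13.2, 11.9 and 14.3 FPKM under the WT label and at 25.2, 26.6 and 20.8 FPKM under the leptin label. The mean was 13.1 ± 1.18 FPKM against 24.2 ± 3.02 FPKM (SD, n = 3 each), a ratio of 1.84. Its log2 difference was 0.83 (standard error 0.16), larger in size than that of 99.1% of the 10735 genes tested. That share was 98.4% for CEBPB, 97.6% for CEBPE and 95.9% for CEBPD. For SPI1, CEBPG and CEBPZ it was 62.4%, 38.2% and 18.3%. With both replicate 1 libraries left out the difference of CEBPA was 0.80. Over the 9 alternatives that could move it, it lay between 0.76 and 0.93. Of the 7 members, CEBPA was the 1 whose labels did not overlap, while over all genes tested 5.0% were higher in leptin without overlap and 2.63% were lower. Relative to PU.1, CEBPA stood at 1.58, 1.91 and 2.17 FPKM per 100 FPKM of SPI1 in the libraries labelled WT and at 3.71, 2.504 and 3.07 in those labelled leptin, again without overlap.

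CEBPB (ENSSSCG00000028739, chromosome 17 from 58041490 to 58043061) and CEBPD (ENSSSCG00000006276, chromosome 4 from 87369053 to 87370589), whose products act in the acute phase response, varied more between animals than between labels. CEBPB was at 182, 132 and 41.6 FPKM under the WT label and at 40.8, 106 and 54.9 FPKM under the leptin label. The libraries of WT replicates 1 and 2 and leptin replicate 2 were high, and those of WT replicate 3 and leptin replicates 1 and 3 were low. CEBPD was at 289.9, 128 and 62.7 FPKM under the WT label and at 88.3, 146 and 63.9 FPKM under the leptin label. The 3 highest libraries for CEBPD were the same as for CEBPB, and the labels overlapped for both genes. Their means were 119 ± 71.2 against 67.3 ± 34.5 FPKM for CEBPB and 160.4 ± 117 against 99.4 ± 42.2 FPKM for CEBPD (SD, n = 3, WT first). The log2 differences were -0.68 (standard error 0.55) and -0.50 (standard error 0.52), within the spread between libraries. Neither direction held with both replicate 1 libraries left out, where the values were 0.04 for CEBPB and 0.11 for CEBPD. Without WT replicate 1 alone, CEBPD was at 0.06 and CEBPB at -0.25, and without WT replicate 3 the values were -1.03 and -1.31. The highest library exceeded the lowest 4.47-fold for CEBPB and 4.62-fold for CEBPD.

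CEBPE (ENSSSCG00000002033, chromosome 7 from 81266198 to 81267897), the gene of the granule-stage factor, ran the other way. It was at 11.4, 24.8 and 39.7 FPKM under the WT label and at 42.3, 27.7 and 35.2 FPKM under the leptin label. CEBPE was lowest in WT replicate 1, where CEBPB and CEBPD were highest, and highest in leptin replicate 1, where CEBPB was lowest. The means of 25.3 ± 14.2 and 35.1 ± 7.27 FPKM (SD, n = 3, WT first) gave a log2 difference of 0.60 (standard error 0.39) with overlapping labels. That difference was 0.13 without WT replicate 1, 0.99 without WT replicate 3, and -0.0068 with both replicate 1 libraries left out.

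CEBPG (ENSSSCG00000002867, chromosome 6 from 38712186 to 38719862) lies 77478 bp from CEBPA in the table. It was at 6.81, 7.36 and 8.89 FPKM under the WT label and at 9.22, 7.18 and 8.46 FPKM under the leptin label. CEBPZ (ENSSSCG00000008493, chromosome 3 from 109397121 to 109422353) was at 10.3, 10.1 and 11.8 FPKM and at 11.5, 10.6 and 11.3 FPKM in the same order. Both had overlapping labels and small log2 differences, 0.10 (standard error 0.16) for CEBPG and 0.05 (standard error 0.14) for CEBPZ. These values changed sign with both replicate 1 libraries left out (-0.05 and -0.0023), and that of CEBPZ also with median-of-ratios scaling between libraries (-0.01). The highest library exceeded the lowest 1.35-fold for CEBPG and 1.17-fold for CEBPZ. Over the 6 libraries, CEBPA and CEBPG had a Pearson r of 0.33 and a Spearman rho of 0.26, but r ran from 0.06 to 0.74 with 1 library left out and was -0.23 without both replicate 1 libraries, so no relation can be read from it.

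Set beside all genes tested, the members lay at both ends of the range of spread. The SD of log2(FPKM + 1) over the 6 libraries was 0.91 for CEBPB, 0.83 for CEBPD and 0.67 for CEBPE, above that of 98.5%, 98.3% and 96.9% of the genes. The value was 0.48 for CEBPA and 0.29 for SPI1, above 92.5% and 71.4% of the genes. CEBPG with 0.16 was above 24.9% of the genes and CEBPZ with 0.084 above 2.81%. Of the 7 members, 5 had a positive and 2 a negative difference between the labels, with a median of 0.10, where all genes tested had a median of 0.06 and 63.1% were positive. With both replicate 1 libraries left out, 4 members were positive and 3 negative with a median of 0.04, and the median of all genes tested was -0.03.

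**Figure D2:**
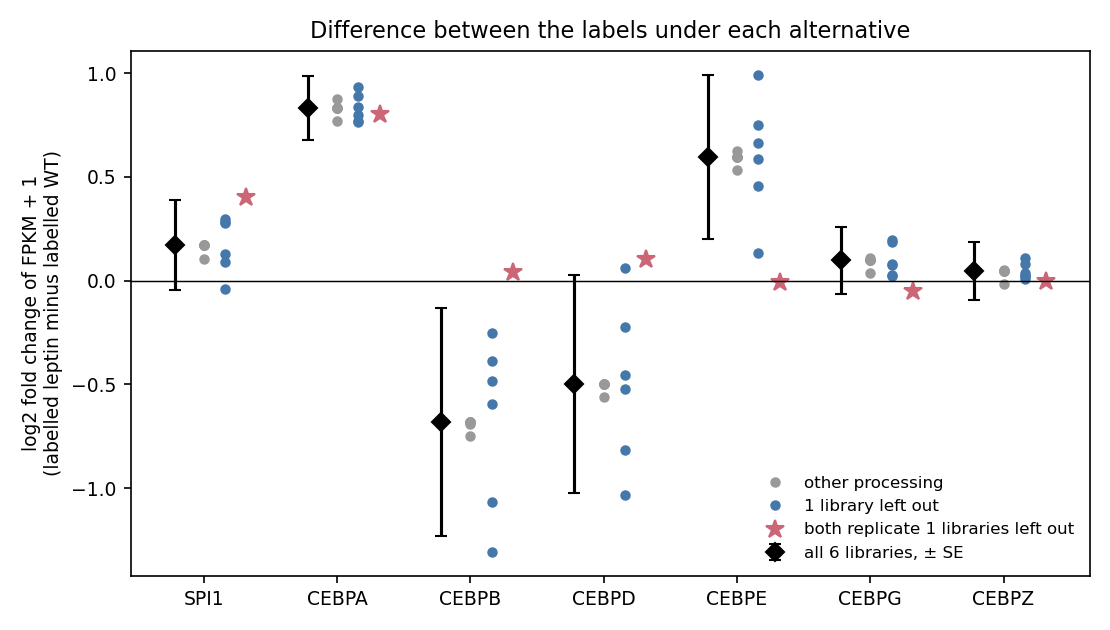
Difference of each gene between the labels (vertical axis, log2(FPKM + 1), leptin minus WT) with all 6 libraries (black, ± standard error), under other processing (grey), with 1 library left out (blue) and with both replicate 1 libraries left out (red). CEBPA stays between 0.76 and 0.93, and CEBPB, CEBPD and CEBPE come to 0.04, 0.11 and -0.0068 with both replicate 1 libraries left out.

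The mixture of C/EBP RNAs differed between animals. Shares of the summed FPKM of the 5 leucine zipper members (CEBPA, CEBPB, CEBPD, CEBPE and CEBPG) are taken within a library and do not move with scaling between libraries. That sum was 503, 304 and 167 FPKM under the WT label and 206, 314 and 183 FPKM under the leptin label. CEBPD and CEBPB made up most of it in each library, with CEBPD at 34.9% to 57.6% and CEBPB at 19.8% to 43.3%. The share of CEBPE was 2.26%, 8.15% and 23.7% in the libraries labelled WT and 20.5%, 8.83% and 19.2% in those labelled leptin. CEBPB RNA was 16.01 times that of CEBPE in WT replicate 1 and 5.32 times in WT replicate 2, but 1.05 times in WT replicate 3. In the libraries labelled leptin the same ratio was 0.965, 3.83 and 1.56, so the order of both genes was turned in leptin replicate 1. The share of CEBPA was 2.61%, 3.92% and 8.55% in the libraries labelled WT and 12.3%, 8.47% and 11.4% in those labelled leptin. WT replicate 3 stood just above leptin replicate 2, so that the shares of CEBPA overlapped between the labels while its FPKM did not.

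**Figure D3:**
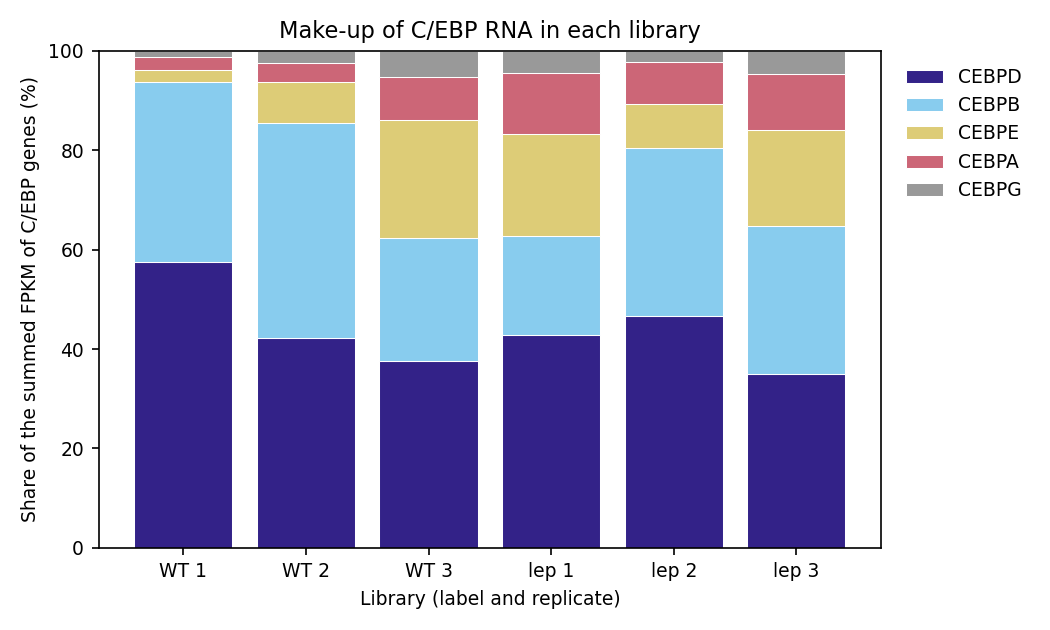
Share of each of 5 C/EBP genes in their summed FPKM (vertical axis, percent) in each library (horizontal axis, label and replicate). CEBPD and CEBPB fill most of each bar, and CEBPE takes 2.26% in WT replicate 1, 23.7% in WT replicate 3 and 20.5% in leptin replicate 1.

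The members fell into a small number of patterns across the 6 libraries. The correlations that follow are descriptions over 6 libraries of log2(FPKM + 1), were computed for all 21 pairs, and carry no test. CEBPB and CEBPD went together (Pearson r = 0.90, Spearman rho = 0.77), and r was 0.94 without the 2 libraries farthest from the median of CEBPB. CEBPB and CEBPE were opposed (r = -0.91, rho = -1.0), with r = -0.999 without those 2 libraries. CEBPD and CEBPE were opposed as well (r = -0.93, rho = -0.77). CEBPB was also opposed to CEBPG (r = -0.98, rho = -0.94) and to CEBPZ (r = -0.95, rho = -0.89), but 20.2% of all genes tested had r of -0.8 or less with CEBPB, and 16.6% with CEBPD. After the mean of each label was removed, r was 0.89 for CEBPB with CEBPD and -0.89 for CEBPB with CEBPE, so these patterns were present within the labels. CEBPA went with none of the others at an r above 0.50, and the highest r of SPI1 was 0.55 (with CEBPD). With the label means removed, r of SPI1 was 0.74 with CEBPD, 0.67 with CEBPB, -0.77 with CEBPG and 0.54 with CEBPA.

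Part of this moved with the scaling between libraries. The median-of-ratios factors ran from 0.904 in WT replicate 1 to 1.09 in leptin replicate 1, a ratio of 1.21, which is larger than the whole range of CEBPZ. With that scaling r between CEBPB and CEBPZ was 0.24 in place of -0.95, and r between CEBPG and CEBPZ was -0.14 in place of 0.92. The scaled range of CEBPG was 1.13-fold. In contrast, r was 0.92 for CEBPB with CEBPD, -0.89 for CEBPB with CEBPE and -0.94 for CEBPB with CEBPG, and the scaled ranges were 5.39-fold for CEBPB, 5.46-fold for CEBPD and 3.08-fold for CEBPE. CEBPA kept its labels apart after scaling, at 12.2 to 14.5 against 20.2 to 27.6.

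The summed level of neutrophil markers went with CEBPB and CEBPD and against CEBPE and CEBPG. The 11 neutrophil markers found in the table, of 22 listed, summed to 4467, 2093 and 711 FPKM under the WT label and to 717, 1956 and 965 FPKM under the leptin label. None of the 11 was listed at 0 in any library, and a few genes made up much of the sum, with S100A12 at 188 to 1702 FPKM, TGM3 at 58.6 to 1159 FPKM and S100A9 at 93.2 to 1031 FPKM. In WT replicate 2 TGM3 alone gave 1159 of the 2093 FPKM. That sum followed CEBPB (r = 0.98, rho = 0.94) and CEBPD (r = 0.94, rho = 0.89), and it opposed CEBPE (r = -0.96, rho = -0.94) and CEBPG (r = -0.97, rho = -0.89). With median-of-ratios scaling r was -0.94 for CEBPE and -0.90 for CEBPG, while for CEBPZ it turned from -0.90 to 0.36. Gene by gene, 6 of the 9 neutrophil markers tested had r of at least 0.8 with CEBPB and 4 with CEBPD, beside 3.56% and 3.12% of all genes tested, and 5 had r of -0.8 or less with CEBPE, beside 2.82%. MMP9, CHI3L1 and PGLYRP1 had r of 0.19, 0.10 and 0.13 with CEBPB. With SPI1 the sum had r = 0.49, and with CEBPA r = -0.41, which was 0.11 with both replicate 1 libraries left out. The monocyte markers, of which 15 genes with 14 symbols were in the table, summed to 3523 to 4036 FPKM under the WT label and to 3593 to 5352 FPKM under the leptin label. Their sum went with SPI1 (r = 0.96, rho = 1.0), and r was 0.66 without the 2 libraries farthest from its median. FCER1G and TYROBP, the highest of the list, made up much of that sum, and 3 of the 15 genes (FCER1G, TYROBP and LYZ) had r of at least 0.8 with SPI1, beside 3.38% of all genes tested, while CST3 had 0.20, CD86 0.01 and CD163 -0.74. Of the platelet markers, 2 of 11 (18.2%) also had r of at least 0.8 with SPI1, namely ITGB3 and a gene listed as GP6, and their sum had r = 0.64. The B cell sum had r = -0.64 and rho = -0.89 with SPI1. With CEBPA the monocyte sum had r = 0.60, which was 0.23 without leptin replicate 2. With CEBPB the monocyte sum had r = 0.30, which was -0.60 without the 2 libraries farthest from its median. Gene by gene, however, 3 of the 15 genes (20.0%) had r of at least 0.8 with CEBPB too, beside 3.56% of all genes tested. They were CD14 (0.84), CLEC7A (0.87) and CD68 (ENSSSCG00000017956, 0.90), while the other gene listed as CD68 had -0.35. Other marker sums moved with members too. The B cell sum had r = 0.85 with CEBPE and -0.79 with CEBPD, but -0.27 and 0.63 without the 2 libraries farthest from its median. Gene by gene, 3 of the 9 B cell markers (33.3%) had r of at least 0.8 with CEBPE, beside 20.6% of all genes tested. The red cell sum had r = -0.82 with CEBPE. The part of cell makeup in the levels of the members was not tested.

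**Figure D4:**
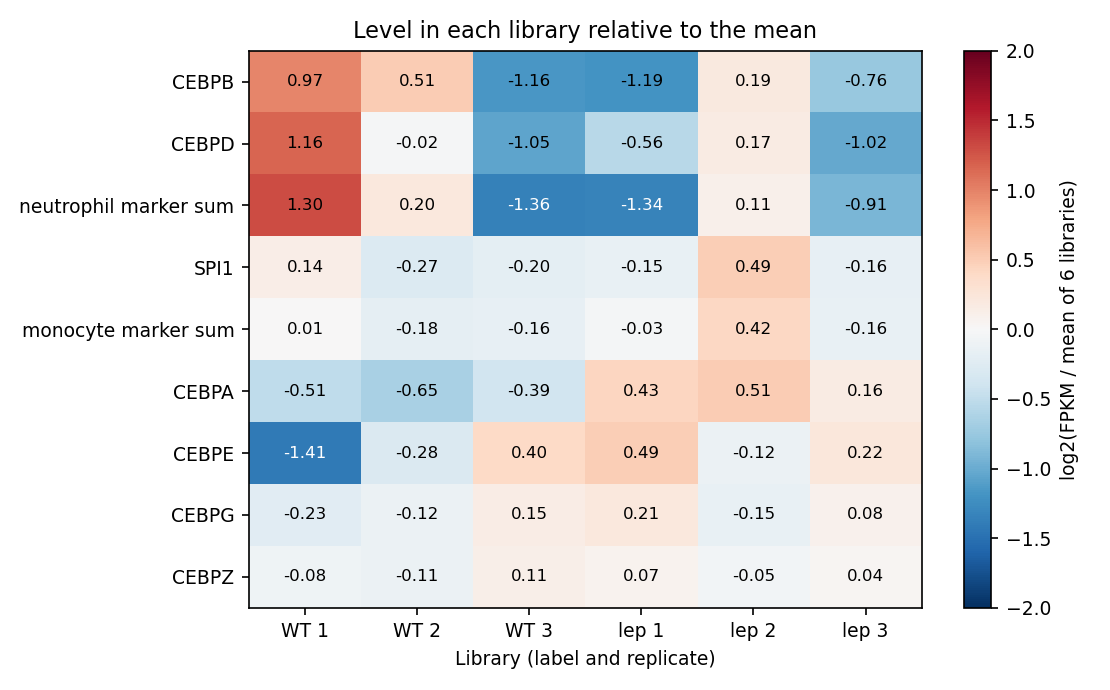
Level of each gene, and of the summed neutrophil and monocyte markers, in each library relative to the mean of the 6 libraries (colour and numbers, log2 of the FPKM ratio). CEBPB has the sign of the neutrophil marker sum in every library, CEBPD in every library but WT replicate 2 (-0.02 against 0.20), and CEBPE has the sign opposite to CEBPB.

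Genes with the most similar pattern were sought for each member among the 8521 other tested genes with a symbol, by Pearson r over the 6 libraries. PPP1R3B, a glycogen-targeting subunit of protein phosphatase 1, was closest to CEBPB (r = 0.998), followed by ALOX5AP, the 5-lipoxygenase activating protein (r = 0.99), and RFFL (r = 0.99). ALOX5AP was at 596, 485 and 260.1 FPKM under the WT label and at 260.2, 390.1 and 296 FPKM under the leptin label. CEBPD was followed by LONRF1 (r = 0.996), GALNT1 and FLOT2 (both r = 0.98). For CEBPE the closest were VPS72, SCFD1 and RBM34 (r = 0.999, 0.998 and 0.997), for CEBPG they were EXD2, CCAR2 and USP16 (r = 0.998, 0.998 and 0.997), and for CEBPZ they were HMGA1 (r = 0.997), MIGA2 and CETN2 (both r = 0.99). SPI1 was followed by TM6SF1 (r = 0.997), DCAF12 and FAM49B (both r = 0.99). The nearest to CEBPA were MAGIX, the small nucleolar RNA SNORD22 and the bromodomain gene BRD3 (each r = 0.98), of which SNORD22 was listed at 0 in every library labelled WT. The patterns of all members here are those of the FPKM as deposited, and that of CEBPZ was lost with median-of-ratios scaling. As a background, 20.6% of all genes tested had r of at least 0.8 with CEBPE, 20.2% with CEBPG and 14.8% with CEBPZ, against 3.56% with CEBPB, 3.12% with CEBPD, 3.79% with CEBPA and 3.38% with SPI1.

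Whether genes around these factors differed between the labels was read from one limma fit over all 10735 genes tested. At an adjusted p under 0.05 (Benjamini-Hochberg) 1 gene, SNORD22, was higher in leptin (0.00932%) and 0 were lower (0%). At an unadjusted p under 0.05, 1.98% were higher and 1.19% lower. That balance turned with median-of-ratios scaling (167 genes higher and 249 lower) and with both replicate 1 libraries left out (104 and 138). No gene of the lists below passed the adjusted threshold, and their adjusted p was 0.993 or more.

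Partners and regulators of the members numbered 37 among the genes tested, with 22 differences positive and 15 negative and a median log2 difference of 0.05, where all genes tested had 0.06. With both replicate 1 libraries left out, these medians were 0.12 and -0.03. JUNB, a subunit of the AP-1 factor, was at 545 ± 139 FPKM under the WT label and 746 ± 92.1 FPKM under the leptin label (SD, n = 3 each). ATF4, a stress-response zipper factor that can pair with C/EBP proteins, was at 540.0 ± 84.8 and 550.3 ± 31.4 FPKM, and RARA, a retinoic acid receptor of myeloid maturation, at 388 ± 52.0 and 394 ± 122 FPKM. NFIL3, a zipper repressor, was at 214 ± 76.4 and 199.6 ± 55.3 FPKM. Over all genes tested, 1.98% were higher and 1.19% lower at the unadjusted p. At that p, 3 of the 37 genes of the list were higher in leptin and 0 lower in limma. They are named after their values were seen: GFI1B, a factor of erythroid and platelet precursors (log2 difference 0.48), MYB, a progenitor factor (0.51), and BATF3, a factor of dendritic cells (0.47), each with an adjusted p of 0.993. The count in either direction was 0 without leptin replicate 2, 6 without WT replicate 1, 5 with a replicate block and 4 with both replicate 1 libraries left out. MYB was at 1.75, 1.34 and 1.34 FPKM under the WT label and at 2.22, 3.47 and 2.0 FPKM under the leptin label. In this list 4 of 37 genes were higher without overlap (GFI1B, MYB, BATF3 and JUN) and 1 was lower (TET2), beside 5.0% and 2.63% of all genes tested.

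Known targets of PU.1 and receptors of myeloid growth factors numbered 35, with a median log2 difference of 0.06, as for all genes tested (0.06). With both replicate 1 libraries left out, these medians were 0.09 and -0.03. The median of the list was -0.0064 with median-of-ratios scaling and -0.0013 without leptin replicate 2. FCER1G and TYROBP, adaptor chains of activating receptors, were at 1311 ± 31.4 and 1183 ± 88.1 FPKM under the WT label and at 1533 ± 405 and 1204 ± 284 FPKM under the leptin label. NCF1, a subunit of the phagocyte oxidase, was at 419 ± 130.5 and 563 ± 276 FPKM, and PTPRC, the common leukocyte antigen CD45, at 440.4 ± 10.9 and 437 ± 9.03 FPKM (SD, n = 3, WT first). CSF1R, the receptor of macrophage colony stimulating factor and a direct target of PU.1, lay between 50.8 and 73.8 FPKM in all 6 libraries. Over all genes tested, 1.98% were higher and 1.19% lower at the unadjusted p. AIF1, named after its value was seen, was the 1 gene of the list higher at that p in limma (log2 difference 0.54, adjusted p = 0.993), and 0 were lower. The count in either direction was 0 without leptin replicate 2, with median-of-ratios scaling or with no moderation, 2 without WT replicate 3, without leptin replicate 1 or with a replicate block, and 3 with both replicate 1 libraries left out. Over the libraries, 5 of the 35 genes (14.3%) had r of at least 0.8 with SPI1, beside 3.38% of all genes tested: FCER1G, TYROBP, NCF1, ITGB2 and LYZ. More of them, 8 (22.9%), had such an r with CEBPB, beside 3.56% of all genes tested, among them CD14, the GM-CSF receptor chain CSF2RB, the kinases LYN and FGR, CD68 and the receptors TLR2 and TLR4. FCER1G, TYROBP, LYZ, CD14, CD68, CSF1R and AIF1 also stand in the monocyte list.

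Granule and secreted targets of C/EBP factors numbered 25, with 9 differences positive and 16 negative. Their median log2 difference was -0.14, but 0.30 without WT replicate 1 and 0.45 with both replicate 1 libraries left out. S100A12 was at 728 ± 845 FPKM under the WT label and 309 ± 125 FPKM under the leptin label, S100A9 at 456 ± 504 and 211 ± 142 FPKM, and ALOX5AP at 447 ± 171 and 315 ± 67.2 FPKM (SD, n = 3 each). CHI3L1, a chitinase-like protein of phagocytes, was at 213 ± 17.3 and 343 ± 166 FPKM without overlap. In this list 2 of 25 genes were higher without overlap (CHI3L1 and TNF) and 0 were lower, beside 5.0% and 2.63% of all genes tested. At the unadjusted p, 2 of the 25 genes were higher in leptin and 0 lower, beside 1.98% and 1.19% of all genes tested. The 2 were AZU1, a granule protein (log2 difference 0.75), and the cytokine gene TNF (1.29), named after their values were seen. Both had an adjusted p of 0.993 in limma. The count in either direction was 1 without WT replicate 2, without leptin replicate 2, with both replicate 1 libraries left out or with median-of-ratios scaling, 3 without leptin replicate 3 or with a replicate block, 5 without WT replicate 3, and 0 with no moderation. Of the 25 genes, 10 (40%) had r of at least 0.8 with CEBPB, beside 3.56% of all genes tested, and 0 had r of -0.8 or less. They were S100A8, S100A9, S100A12, ALOX5AP, SOD2, RETN, LTF, LCN2 and both genes listed as IL6R, between which reads may have been split. With CEBPD the count was 9 (36.0%). With CEBPE, 12 of the 25 (48.0%) had r of -0.8 or less, beside 2.82% of all genes tested, and 0 had r of at least 0.8. LTF, lactoferrin of the secondary granules, was at 25.6, 7.47 and 2.48 FPKM under the WT label and at 3.49, 9.92 and 8.47 FPKM under the leptin label, so it was highest where CEBPE was lowest. Of the list, 2 genes (8.0%) had r of at least 0.8 with CEBPA, TNF and AZU1, beside 3.79% of all genes tested. S100A8, S100A9, S100A12, LTF and LCN2 also stand in the neutrophil list, so these counts are not apart from that sum.

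For CEBPZ, 45 genes of ribosome biogenesis were tested, since its product belongs to the nucleolus. Of these 41 had a positive and 4 a negative difference between the labels, where 63.1% of all genes tested were positive. Their median was 0.11 on the log2 scale, beside 0.06 for all genes tested. In limma 0 passed the unadjusted p in either direction, also with both replicate 1 libraries left out. That count was 2 without WT replicate 3 and 1 with median-of-ratios scaling. The median of the list was 0.05 with median-of-ratios scaling and -0.06 with both replicate 1 libraries left out. The medians of all genes tested were then 0.0022 and -0.03. NPM1, a nucleolar chaperone, was at 292 ± 49.4 and 314 ± 21.6 FPKM, and NCL, nucleolin, at 155 ± 24.4 and 180.0 ± 12.7 FPKM (SD, n = 3, WT first). FBL and TSR2 were at 50.7 ± 8.50 and 44.0 ± 6.48 FPKM under the WT label and at 52.4 ± 5.63 and 46.4 ± 5.94 FPKM under the leptin label. With CEBPZ 16 of the 45 genes (35.6%) had r of at least 0.8, beside 14.8% of all genes tested, and 30 (66.7%) did with CEBPE and with CEBPG, beside 20.6% and 20.2%. With CEBPB and with CEBPD 29 (64.4%) had r of -0.8 or less, beside 20.2% and 16.6% of all genes tested. All of these counts, and those of the other lists, were taken on the FPKM as deposited and were not repeated after scaling. Median-of-ratios scaling removed the pattern of CEBPZ and narrowed the range of CEBPG from 1.35-fold to 1.13-fold.

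**Figure D5:**
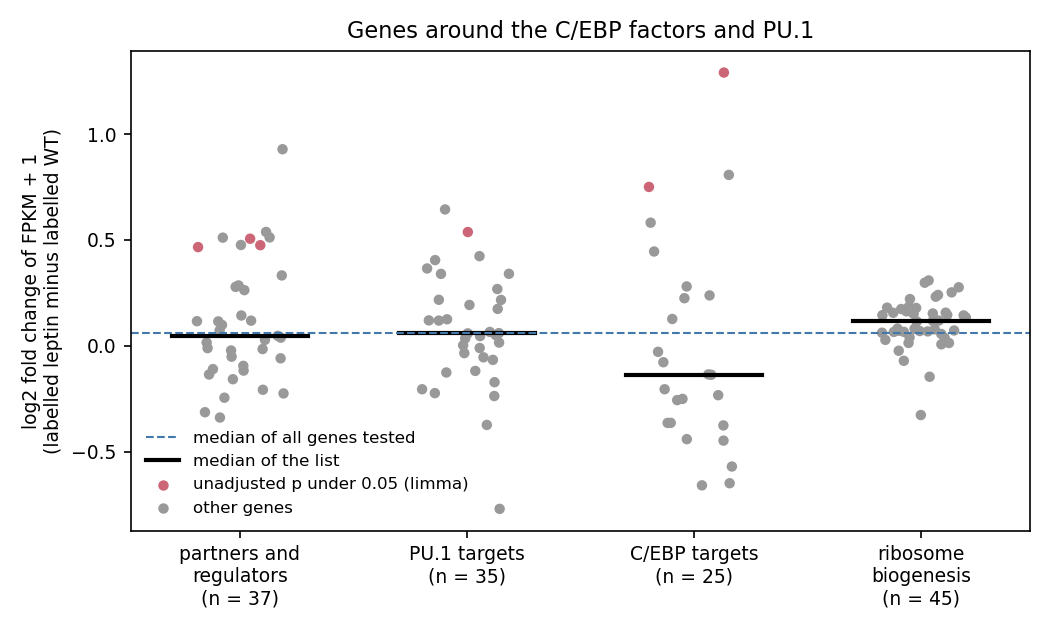
Difference between the labels (vertical axis, log2(FPKM + 1), leptin minus WT) of each tested gene in 4 lists, with list medians in black, the median of all genes tested as a dashed line, and genes at an unadjusted p under 0.05 in red. The list of C/EBP targets has a median of -0.14 with all 6 libraries but 0.45 with both replicate 1 libraries left out, and the lowest adjusted p in any list was 0.993.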

How the data were processed

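PBMC RNA of 6 pigs was measured. The animal codes in the column names tied each FPKM column to its sample, whose title gave the label. The authors deposited FPKM values, 1 per gene and library, and per the study's methods paired-end reads were aligned with Bowtie to the Ensembl transcriptome and quantified with RSEM. The submitters' processing notes instead list FastQC, STAR 2.5, Cuffnorm and DESeq 1.22.1, and which of these made the table is not given in the sources used here. The table also holds the authors' own fold changes, p-values and marks, which were not used.

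Members were matched on the symbol column. For the lists, 1504 of the 4000 genes without a symbol were named through a table of Ensembl identifiers, which held 7417 of the 11564 identifiers. No reference genome or sequence was used here.

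Differences are on log2(FPKM + 1), which understates those of low genes, fitted with limma 3.58.1 in R 4.3.3 (genotype only, two-sided, Benjamini-Hochberg) over the 10735 genes that reached FPKM 1 in 3 or more libraries. The fit was tested on simulated data. Replicates are separate animals by their codes.

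The members and the gene lists were chosen with earlier results of these data known. The genes named are all members, the 4 genes with the highest mean FPKM in each list, any list gene with an adjusted p under 0.05, the 3 genes closest to each member by Pearson r, and LEP. Any other gene was named after its values were seen. Alternatives were the pseudocount, the filter, median-of-ratios scaling, no moderation, a replicate block, and libraries left out. Other lists checked were markers of monocytes, neutrophils, T, B and NK cells, platelets, red cells and adipocytes.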

Additional observations from a re-analysis of the deposited data

How the results depend on the processing

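Of the 13 alternatives, 4 (both other filters, no moderation and the replicate block) leave a member's difference as it is by construction. Over the other 9, CEBPA stayed higher in the libraries labelled leptin, from 0.76 to 0.93 on the log2 scale. The other members each changed sign in at least 1 alternative. The ranges were -1.31 to 0.04 for CEBPB, -1.03 to 0.11 for CEBPD, -0.0068 to 0.99 for CEBPE, -0.05 to 0.19 for CEBPG, -0.01 to 0.11 for CEBPZ and -0.04 to 0.40 for SPI1. The replicate block left CEBPA at 0.83 and changed no call of a list gene at the adjusted p. At the unadjusted p the block gave 216 higher and 168 lower genes, against 213 and 128 without it. The deviations of same-numbered animals from their label means correlated at -0.284, 0.135 and -0.00728 for replicates 1, 2 and 3. Whether these animals share more than a number cannot be told from these values.

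Over all genes tested, the 1 gene higher at the adjusted p became 2 with the replicate block and 0 with no moderation. The count was 0 with both replicate 1 libraries left out and ranged from 0 to 2 with 1 library left out. It was 0 too where all libraries had to reach FPKM 1. That filter removes SNORD22 before the test, since SNORD22 was listed at 0 in every library labelled WT. Lower genes at the adjusted p ranged from 0 to 2 with 1 library left out. At the unadjusted p, higher genes went from 213 to 104 with both replicate 1 libraries left out and ranged from 135 to 608 with 1 library left out, the highest without WT replicate 3. With median-of-ratios scaling higher genes went to 167 and lower genes from 128 to 249. Lower genes were 138 with both replicate 1 libraries left out and ranged from 95 to 238 with 1 library left out. Under that scaling, and with both replicate 1 libraries left out, lower genes thus outnumbered higher genes. The median of the C/EBP targets was 0.45 with both replicate 1 libraries left out and ranged from -0.46 to 0.30 with 1 library left out. Apart from the removal of SNORD22 by the filter, the cause of these changes was not tested. Median-of-ratios scaling moved the median of all genes tested from 0.06 to 0.0022. Without read counts, no count model could be run.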

Other observations

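Other cell types in the PBMCs were read from their marker lists, each as the summed FPKM over the genes found. T cell markers summed to 1270 to 1668 FPKM under the WT label and to 1131 to 1927 FPKM under the leptin label, with CD3E, CD247, ZAP70 and CD3G at the highest levels. B cell markers summed to 421 to 780.4 and to 585 to 746 FPKM, led by CD79A, CD79B, MS4A1 and BLK, and were lowest in WT replicate 1. NK cell markers summed to 352 to 789 and to 478 to 742 FPKM, led by GNLY. Platelet markers summed to 273 to 625 and to 224 to 599.7 FPKM, led by PF4. Of 12 red cell markers 4 were in the table, with HBB at 17.7 to 211 FPKM and highest in WT replicate 1. Of 12 adipocyte markers 4 were in the table, and apart from LEP these were PNPLA2, LIPE and RETN. No gene of these lists passed the unadjusted p in limma (0 higher and 0 lower in each), and 0 passed the adjusted p.

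TGM3, a transglutaminase gene on the neutrophil list, was named there by its level. It was at 728, 1159 and 81.8 FPKM under the WT label and at 63.9, 145 and 58.6 FPKM under the leptin label, a log2 difference of -2.32 (standard error 0.89, adjusted p = 0.993, limma). Of the 9 neutrophil markers tested, TGM3 was the 1 lower at the unadjusted p, and 0 were higher. Over all genes tested, 1.19% were lower and 1.98% higher. WT replicate 3 lay below leptin replicate 2, so the labels overlapped. CEBPB, CEBPD and TGM3 were all low in WT replicate 3 and in leptin replicates 1 and 3.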
